A study of Mus musculus with 15 samples.

Results

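The Hox cluster genes were examined in mouse anterior prostate on 15 single-colour Illumina BeadArrays. A gene was a member when its symbol in the deposited annotation was Hox, a cluster letter from A to D and a number. This gave 39 genes on 57 probes, out of 28902 distinct names on 45281 probes. The members comprised 11 HoxA, 10 HoxB, 9 HoxC and 9 HoxD genes.

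The 15 arrays came from 15 mice in 3 groups, each labelled total RNA of anterior prostate. Castrated mutant mice (n = 6) and intact mutant mice (n = 6) carried an allele labelled CE2/+ together with a homozygous floxed gene (f/f). Intact control mice (n = 3) carried CE2/+ alone, so the CE2 allele is common to all 15 animals, and the submitters describe the controls as having a wild-type phenotype. The CE2 allele is known as a source of inducible Cre recombinase in prostate epithelium, so the floxed gene can be lost only in cells in which that Cre is active, and the dissected lobe also holds other cells. Ages, the interval after castration and the schedule of induction were not given in the labels used here, which list no drug treatment. Because no castrated control was measured, castration was compared within the mutant genotype alone.

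Hox genes encode homeodomain transcription factors that lie side by side in the HoxA, HoxB, HoxC and HoxD clusters. Along a cluster, the lower paralog numbers are used towards the head of the embryo and the higher numbers towards the tail. The highest-numbered genes pattern the urogenital tract, and in mice loss of Hoxa13, Hoxb13 or Hoxd13 disturbs the prostate and other male accessory glands. Hox proteins bind DNA together with cofactors of the PBX, MEIS and PKNOX families, Polycomb and MLL complexes hold the clusters silent or active, and retinoic acid is a classical inducer of the lower-numbered genes.

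RefSeq promoter windows on GRCm38.p6, from 250 bases before to 50 bases after a gene's start, were found for 22 of the 39 members, in 24 windows of 300 bases. The sequences below are shown because Hoxd13 and Hoxd12 were higher in both mutant groups, Hoxd4 had the largest fold of any member, and Hoxa7 was the member outside HoxD with the largest rise. All are printed 5′ to 3′ on the gene's own strand, and capitals mark the letters TATAAA or CCAAT on either strand. In the Hoxd13 window, matches to TATAAA on the 2 strands overlap in 1 run of capitals.
Hoxd13, chr2:74667975-74668274, plus strand: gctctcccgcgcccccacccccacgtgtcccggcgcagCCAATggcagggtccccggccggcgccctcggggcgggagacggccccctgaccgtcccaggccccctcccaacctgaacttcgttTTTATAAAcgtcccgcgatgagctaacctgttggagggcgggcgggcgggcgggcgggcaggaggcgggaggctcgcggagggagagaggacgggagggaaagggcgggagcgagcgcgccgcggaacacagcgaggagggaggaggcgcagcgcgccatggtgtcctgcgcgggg
Hoxd12, chr2:74674763-74675062, plus strand: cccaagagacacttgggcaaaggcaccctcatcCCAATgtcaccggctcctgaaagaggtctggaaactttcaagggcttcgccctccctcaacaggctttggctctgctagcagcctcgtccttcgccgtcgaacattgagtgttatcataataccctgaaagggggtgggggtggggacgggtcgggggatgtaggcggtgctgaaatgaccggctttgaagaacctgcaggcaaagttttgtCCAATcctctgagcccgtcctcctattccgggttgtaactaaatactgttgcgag
Hoxd4, chr2:74721728-74722027, plus strand: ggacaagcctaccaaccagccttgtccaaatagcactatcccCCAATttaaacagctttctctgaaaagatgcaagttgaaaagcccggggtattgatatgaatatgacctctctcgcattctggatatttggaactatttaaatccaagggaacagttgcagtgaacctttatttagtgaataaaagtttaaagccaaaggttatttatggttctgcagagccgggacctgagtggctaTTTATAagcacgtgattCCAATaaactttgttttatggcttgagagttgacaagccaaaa
Hoxa7, chr6:52218524-52218823, minus strand: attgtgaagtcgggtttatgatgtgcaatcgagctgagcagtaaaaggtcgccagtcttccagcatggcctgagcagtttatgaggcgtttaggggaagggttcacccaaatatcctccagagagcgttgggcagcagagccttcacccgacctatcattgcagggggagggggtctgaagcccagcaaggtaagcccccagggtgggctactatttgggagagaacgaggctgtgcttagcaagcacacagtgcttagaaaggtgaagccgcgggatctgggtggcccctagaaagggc

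These windows differ in base composition. The Hoxd13 window holds 37 CpG dinucleotides, the Hoxd12 window 13, the Hoxa7 window 9 and the Hoxd4 window 4, against a median of 14.5 over the 24 member windows (4 to 45) and a median of 7 over 32851 mouse promoter windows (upper quartile 20). The letters CCAAT were found in 15 of the 24 member windows and in 37.4% of all windows. TATAAA was found in 4 of the 24 and in 13.6% of all, and TGATNNAT, a form of the joint PBX and HOX site, in 4 of the 24 and in 8.85% of all. AGAACA, the androgen response half-site, was found in 2 of the 24, those of Hoxa9 and Hoxa11, and in 19.0% of all windows. The printed windows hold neither TGATNNAT nor AGAACA. A match describes letters in the window and nothing about binding.

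Values below are log2 intensities of each gene's brightest probe. Averages carry the SD over arrays, and each log2 fold change its standard error (SE). A level belongs to its own probe and is not set against the level of another gene. The background limit of an array was the 95th percentile of its probes for olfactory and vomeronasal receptors, which lay between 7.27 and 7.38, and 42.2% to 48.2% of probes were above it. The deposited intensities had not been brought down to 0 where nothing binds, so folds of dim genes are understated. In whole tissue, fewer cells of a type and less RNA per cell cannot be told apart.

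Before the results, some arrays stood apart. Pate4, a seminal vesicle transcript, was at 13.84 and 14.35 in castrated mutant replicates 3 and 6 and between 7.09 and 10.01 in the other 4. It was at 15.38 in intact mutant replicate 3, nearly as high in replicate 2, and between 6.97 and 8.94 in the other 4. Among controls it was at 15.44 and 15.38 in replicates 2 and 3 and at 7.64 in replicate 1. Svs5, another seminal vesicle transcript, followed Pate4 only in part. It was at 15.02 to 15.26 on the intact mutant and control arrays high in Pate4. In castrated replicates 3 and 6 it was at 11.05 and 7.62, and in control replicate 1 at 9.75. Pbsn, the probasin gene that marks androgen-driven prostate secretion, lay between 6.89 and 7.16 on all 12 mutant arrays, below their background limits, against 11.77 to 11.88 in the controls. The mutant tissue was therefore prostate by its label but lacked this marker. Other prostate secretion genes did not all follow. Of 8 such genes tested, Pbsn among them, 4 were lower in intact and 5 in castrated mutants than in controls. Apof was at 10.06 to 12.05 in intact mutants, against 11.22 to 12.14 in controls. Intact mutant replicate 1 stood apart in another way: its mean over 11 leukocyte markers was 11.34, against 9.04 to 10.11 in the other 5 intact mutants, and its level of Csf1r, a macrophage receptor gene, was 13.49, against at most 10.19. The labels also give animal ID numbers, and those of castrated replicates 4, 5 and 6 lie far above all the others. Without these 3 arrays, Hoxb7, Hoxd9 and Hoxd11 were not called in castrated mutants against controls (adjusted p = 0.0764, 0.0663 and 0.199), whereas Hoxa9 was (0.0252), as was Hoxd10 in intact mutants (0.0218).

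Of the 39 Hox genes, 15 were above background on all 15 arrays, 11 on 3 to 14 arrays, 5 on 1 or 2 arrays and 8 on none. The 15 were Hoxa2, Hoxa5, Hoxa7, Hoxa9 and Hoxa13, Hoxb4, Hoxb5, Hoxb6 and Hoxb7, and Hoxd4, Hoxd8, Hoxd9, Hoxd10, Hoxd12 and Hoxd13. The 8 that no array showed above background were Hoxa4, Hoxa6, Hoxb1, Hoxb8, Hoxc5, Hoxc9, Hoxc11 and Hoxc12. The clusters differed in this respect. In HoxD, 6 of 9 genes were above background on every array, whereas 0 of 9 HoxC genes were, and among HoxC only Hoxc10 (14 arrays) and Hoxc4 (12 arrays) passed on 3 or more.

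**Figure D1:**
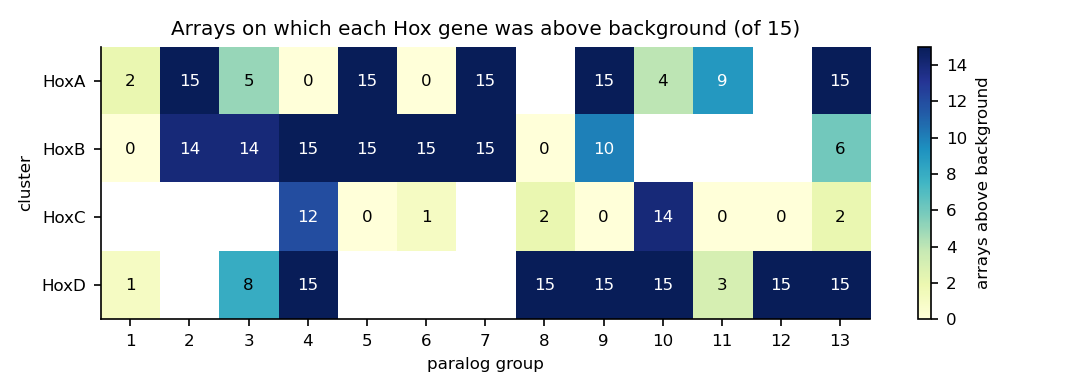
Number of arrays, of 15, on which each Hox gene was above background, by cluster (rows) and paralog group (columns), with empty squares where the array carries no member. HoxD genes from Hoxd8 to Hoxd13 other than Hoxd11 are at 15, and HoxC has no gene at 15.

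The number of Hox genes above background hardly separated the groups. It was 20 to 24 per array in castrated mutants, 20 to 24 in intact mutants and 21 to 22 in controls. Above background on every array of the group were 17 genes in castrated mutants, 18 in intact mutants and 19 in controls. A gene was tested when it was above background on at least 3 arrays, which 26 of the 39 members were, 8 in HoxA, 8 in HoxB, 2 in HoxC and 8 in HoxD. Hoxa3, Hoxa10, Hoxa11 and Hoxd3 were above background on no control array, so they reached the test through mutant arrays alone, and a difference from control in these 4 is partly set by that filter. Hoxd11 reached it through control and intact mutant arrays alone, so its difference in castrated mutants is partly set by the filter too.

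The first comparison asked how Hox expression differed between intact mutant and intact control prostate. Hoxd13, Hoxd12, Hoxa7, Hoxb7 and Hoxa9 were higher in intact mutants, by 1.35-fold to 1.99-fold, and Hoxb9 was 2.37-fold lower. The other 20 of the 26 tested members did not pass an adjusted p of 0.05 in limma, the threshold used throughout. The 5 higher genes of 26 are a share close to the 18.2% of all 16682 tested genes called higher. The 1 lower gene compares with 25.4% of all tested genes, and 43.6% were called in either direction. The median log2 fold change was 0.12 over the 26 members and -0.04 over all tested genes.

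Hoxd13 is the last gene of its cluster and is needed in mice for the genital tubercle, digits and accessory glands. Its log2 intensity lay between 8.07 and 8.90 in intact mutants (median 8.61), against 7.61, 7.70 and 7.40 in the 3 controls. Every intact mutant array was above every control array. The log2 fold change was 0.99 (SE 0.16, adjusted p = 0.000108), which is 1.99-fold.

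Hoxd12, its neighbour and also a gene of limb and genital patterning, lay between 8.04 and 8.79 in intact mutants (median 8.35), against 7.43, 7.49 and 7.62 in the controls. The groups did not overlap, and the fold was 1.84 (log2 fold change 0.88, SE 0.18, adjusted p = 0.000877). A second Hoxd12 probe was above background on no array and differed by 0.03 in intact and 0.01 in castrated mutants against controls. The control values of both genes were close to the background limit, so these folds are understated.

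Hoxa7, a trunk-level gene known as a target of MLL proteins in leukaemia, ranged from 9.39 to 10.34 in intact mutants (median 9.93), against 9.49, 9.01 and 8.93 in controls. Intact mutant replicate 1, at 9.39, lay below control replicate 1, so the groups overlapped. The difference was 0.80 on the log2 scale (SE 0.18, adjusted p = 0.00259).

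Hoxb7, which is active in the ureteric bud and in several carcinomas, ranged from 10.71 to 11.68 in intact mutants (median 11.04), against 10.56, 10.55 and 10.42 in controls, without overlap. The fold was 1.51 (log2 fold change 0.60, SE 0.16, adjusted p = 0.0072). A second Hoxb7 probe gave the same difference of 0.60 in a fit of all probes (adjusted p = 0.0144).

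Hoxa9, a leukaemia-associated gene of the posterior trunk, ranged from 8.69 to 9.49 in intact mutants (median 9.12), against 8.72, 8.65 and 8.64 in controls. Intact mutant replicate 1 lay within the control range and the other 5 above it. The log2 fold change of 0.43 (SE 0.17) passed narrowly (adjusted p = 0.0492). It no longer passed when any control was left out (adjusted p = 0.0912 without replicate 1, 0.118 without 2 and 0.12 without 3), nor without intact mutant replicate 2, 3, 4 or 5 (0.0891, 0.0505, 0.0897 and 0.0828) or castrated replicate 2, 3 or 5 (0.0596, 0.0564 and 0.0576). In the fit of all probes this probe was not called (adjusted p = 0.0502), a second Hoxa9 probe differed by 0.42 and was called (adjusted p = 0.0289), and the last, above background on 1 array, differed by -0.08.

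Hoxb9, a posterior trunk gene that acts with Hoxa9 and Hoxd9 in mouse mammary gland, was the single member called lower. It ranged from 7.17 to 7.54 in intact mutants (median 7.35) and was above background on 4 of those 6 arrays, against 8.70, 8.31 and 8.83 in the controls. The gap between the groups was wider than the spread within either. The log2 fold change was -1.25 (SE 0.13, adjusted p = 2.12e-06), a fold of 2.37, and it is understated because the mutant values sit at the background limit.

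**Figure D2:**
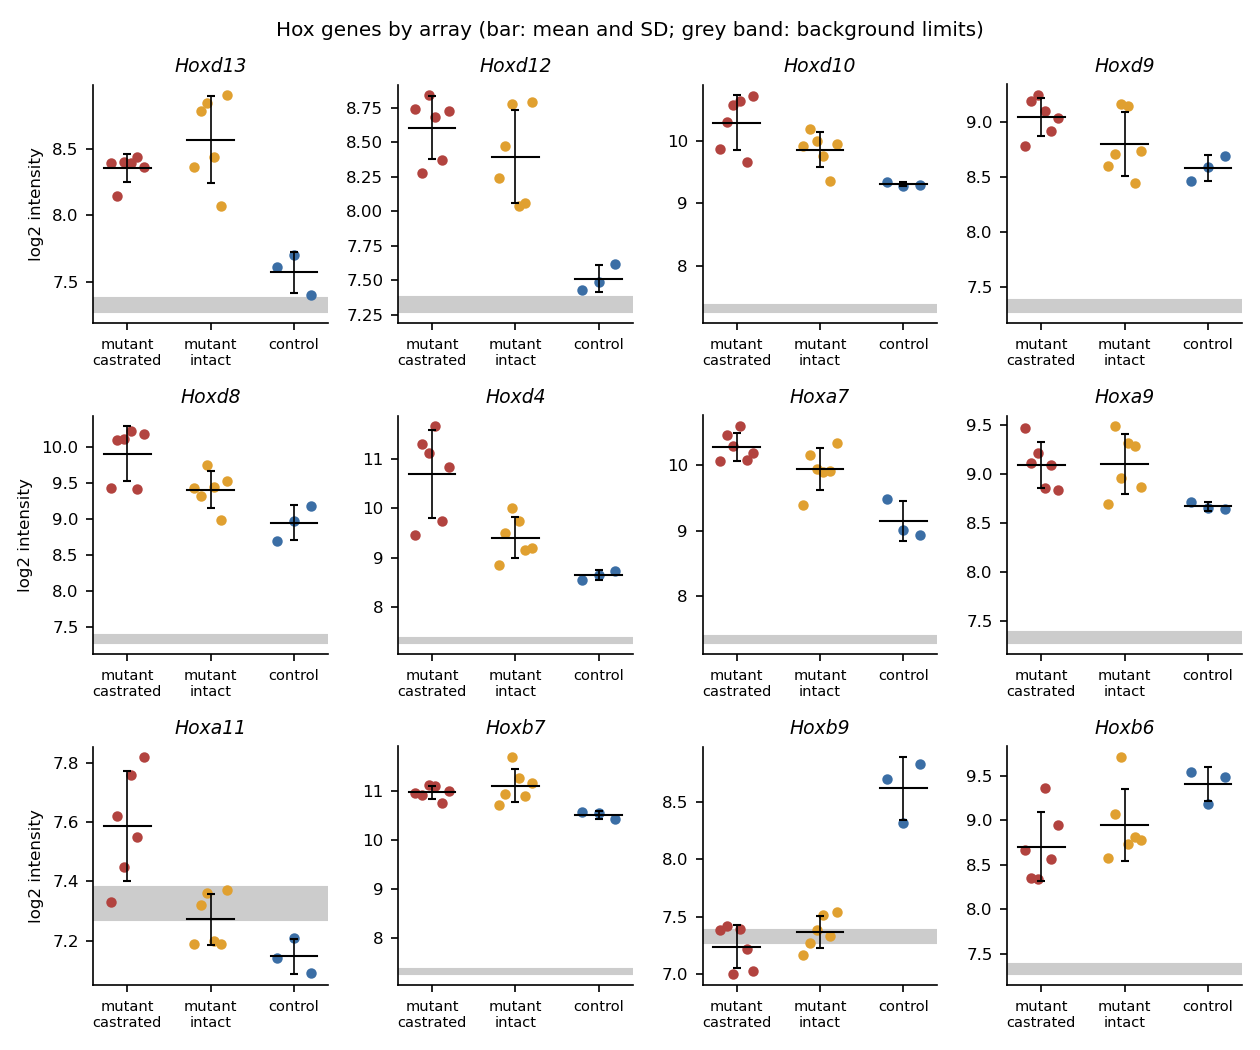
Log2 intensity of the Hox genes called in at least 1 comparison, other than Hoxd11, in castrated mutants (n = 6), intact mutants (n = 6) and controls (n = 3); points are arrays, bars the mean and SD, and the grey band the range of background limits from 7.27 to 7.38. Hoxd13 and Hoxd12 lie above the controls on all 12 mutant arrays, and Hoxb9 lies below them on all 12.

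The second comparison set castrated mutant prostate against intact control prostate, using the same 3 control arrays. These groups differ in both genotype and castration, which this comparison cannot tell apart. Here 6 of the 8 tested HoxD genes were higher: Hoxd4, Hoxd12, Hoxd10, Hoxd8, Hoxd13 and Hoxd9, by 1.37-fold to 4.12-fold. Hoxa7, Hoxa11 and Hoxb7 were higher too, and Hoxb9, Hoxb6 and Hoxd11 were lower. In all, 9 of 26 tested members were higher and 3 lower, against 20.0% and 24.6% of all tested genes, and 44.6% of all genes were called in either direction. These shares move with the scaling: of all called genes 44.8% were higher in castrated and 41.8% in intact mutants, and under cyclic loess 52.7% and 51.4% were. The median log2 fold change was 0.23 over the 26 members and -0.03 over all tested genes.

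The clusters had different medians. In castrated mutants against controls the median log2 fold change was 0.87 over the 8 tested HoxD genes, with 6 higher and 1 lower. It was 0.34 over the 8 HoxA genes (2 higher, 0 lower), -0.34 over the 8 HoxB genes (1 higher, 2 lower) and -0.08 over the 2 HoxC genes (neither called). In intact mutants against controls the same medians were 0.51, 0.15, -0.19 and -0.12. These 8 medians kept their signs under each of 4 other scalings. By paralog number, 5 of 12 tested members of groups 9 to 13 were higher and 2 lower in castrated mutants against controls. In groups 5 to 8 these counts were 3 and 1 of 6, and in groups 1 to 4 they were 1 and 0 of 8, the 1 being Hoxd4.

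Hoxd4, a hindbrain and neck-level gene that responds to retinoic acid in embryos, had log2 intensities of 9.46, 11.31, 11.12, 11.66, 9.75 and 10.84 in castrated mutant replicates 1 to 6. The controls were at 8.55, 8.65 and 8.74. Every castrated array was above every control, but replicates 1 and 5 were more than 1 log2 unit below the other 4. The log2 fold change was 2.04 (SE 0.41, adjusted p = 0.000839), which is 4.12-fold.

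Hoxd8, a trunk-level gene, stood at 9.42, 10.09, 10.10, 10.21, 9.41 and 10.18 in castrated mutant replicates 1 to 6, against 8.69, 8.97 and 9.17 in controls. Replicates 1 and 5 were the lowest castrated arrays here too, and all 6 were above the controls. The fold was 1.94 (log2 fold change 0.96, SE 0.20, adjusted p = 0.0013).

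Hoxd10, which specifies lumbar motor neurons and hindlimb in mice, was at 9.87, 10.30, 10.56, 10.63, 9.66 and 10.71 in castrated mutant replicates 1 to 6, against 9.34, 9.28 and 9.29 in controls. Replicates 1 and 5 were again the lowest, and no castrated array reached down to the controls. The fold was 1.98 (log2 fold change 0.98, SE 0.22, adjusted p = 0.00187).

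Hoxd9, a further gene of lumbar level, moved less. It ranged from 8.78 to 9.24 in castrated mutants (median 9.06), against 8.46, 8.59 and 8.69 in controls, without overlap (log2 fold change 0.46, SE 0.15, adjusted p = 0.023). Without control replicate 1 or 2 the difference no longer passed (adjusted p = 0.099 and 0.0586). A second Hoxd9 probe differed by 0.42 and was not called in the fit of all probes (adjusted p = 0.0848).

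At the end of the cluster, Hoxd12 ranged from 8.28 to 8.84 in castrated mutants (median 8.70) and was 2.13-fold above controls (log2 fold change 1.09, SE 0.18, adjusted p = 0.000137). Hoxd13 ranged from 8.14 to 8.44 (median 8.39) and was 1.72-fold above controls (log2 fold change 0.78, SE 0.16, adjusted p = 0.000813). Both were above every control array on all 6 castrated arrays. Their spread between castrated arrays (SD 0.22 and 0.11) was smaller than that of Hoxd4 (SD 0.89), and replicate 2 was the lowest castrated array for both.

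Hoxd11, which acts with Hoxa11 in kidney and forearm development, went the other way at the edge of detection. It was at 7.02 to 7.28 in castrated mutants (median 7.23), above background on none of the 6 arrays, against 7.29, 7.41 and 7.59 in controls, of which 2 were above background. With castrated arrays put at their limits it was at least 1.10-fold lower, a bound that does not allow for the spread between arrays. The log2 fold change was -0.24 (SE 0.09, adjusted p = 0.0414). Hoxd11 passed the filter through control and intact mutant arrays alone, so this difference is partly set by that filter, and it is 1 of the 3 genes counted as lower. The call was lost without control replicate 2 or 3 (adjusted p = 0.0818 and 0.222), without intact mutant replicate 3 or 4 (0.0503 and 0.0508) and without castrated replicate 3, 4 or 6 (0.0554, 0.0775 and 0.0756).

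**Figure D3:**
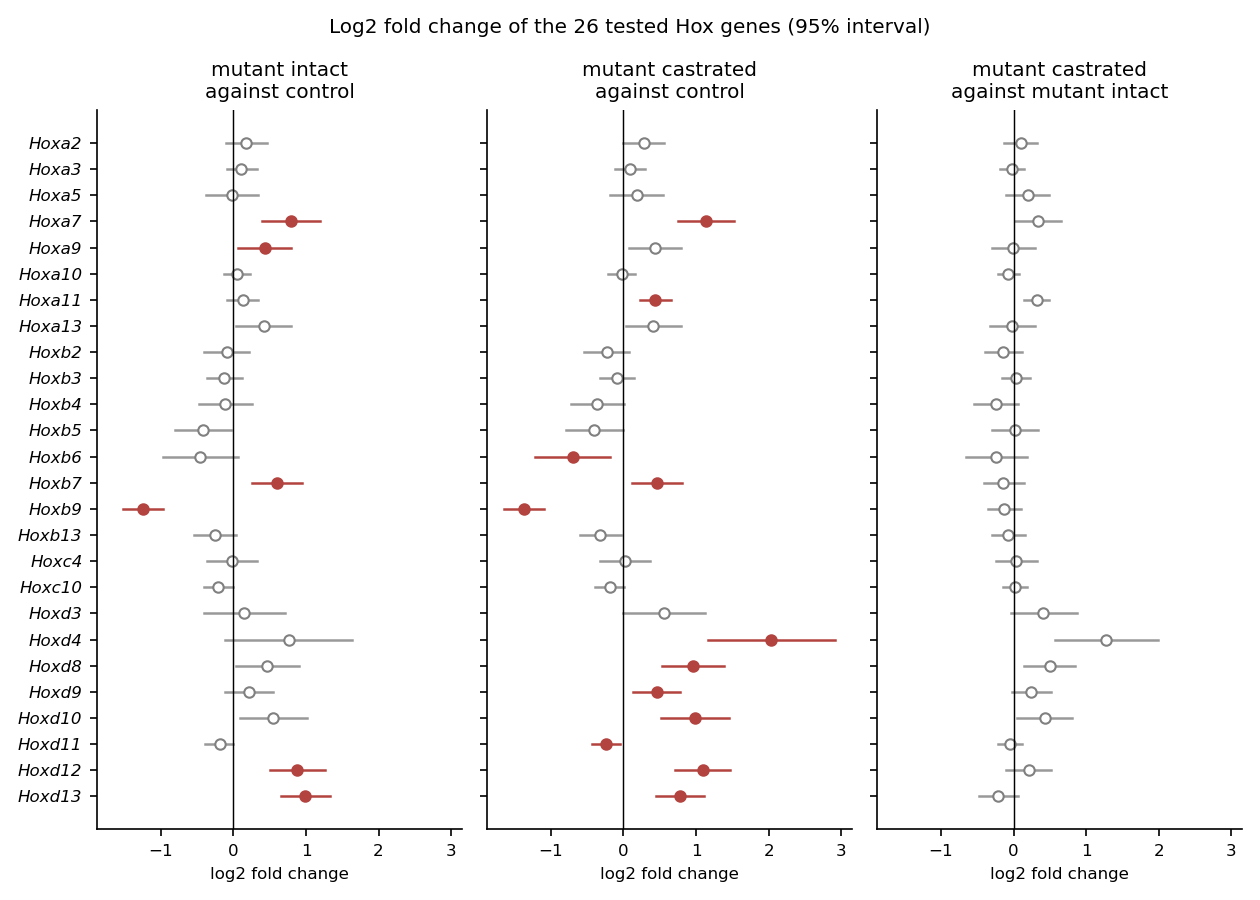
Log2 fold change of the 26 tested Hox genes with its 95% interval in intact mutants against controls, castrated mutants against controls and castrated against intact mutants; filled red points passed an adjusted p of 0.05 in limma. In the middle panel 6 HoxD genes lie to the right of 0, and in the right panel no gene is filled.

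Outside HoxD, Hoxa7 ranged from 10.07 to 10.60 in castrated mutants (median 10.25) and no longer overlapped the controls. It was 2.20-fold higher (log2 fold change 1.14, SE 0.18, adjusted p = 0.000138). Hoxb7 ranged from 10.75 to 11.11 (median 10.97), above every control, with a fold of 1.38 (log2 fold change 0.46, SE 0.16, adjusted p = 0.0297). That call was lost without any 1 of the controls (adjusted p = 0.0614 without replicate 1, 0.0636 without 2 and 0.104 without 3) and without castrated replicate 3 or 4 (0.0536 and 0.0523). The second Hoxb7 probe differed by 0.46 (adjusted p = 0.0494).

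Hoxa11, a gene of the Müllerian and Wolffian ducts and the limb, was at 7.33, 7.62, 7.45, 7.76, 7.55 and 7.82 in castrated mutant replicates 1 to 6. All 6 were above background, as were 3 of 6 intact mutant arrays and none of the controls, which were at 7.14, 7.21 and 7.09. The gene was at least 1.16-fold higher in castrated mutants than in controls (adjusted p = 0.00204). It passed the filter only through the mutant arrays on which it is high, and it is 1 of the 9 genes counted as higher.

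Hoxb9 ranged from 7.0 to 7.42 in castrated mutants (median 7.30), was above background on 3 of the 6 arrays, and was 2.59-fold below controls (log2 fold change -1.37, SE 0.13, adjusted p = 7.26e-07). Hoxb6, a gene of lateral plate mesoderm and hindlimb, ranged from 8.34 to 9.36 (median 8.62), against 9.54, 9.19 and 9.49 in controls. Castrated replicate 4, at 9.36, lay among the controls and the other 5 arrays lay below them. The log2 fold change was -0.70 (SE 0.24, adjusted p = 0.029). It was not called without control replicate 1 or 3 (adjusted p = 0.104 and 0.0902) or castrated replicate 2 or 3 (0.0559 and 0.0561).

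Hoxb13 and Hoxa13 are the other posterior members known for a role in prostate, Hoxb13 also as a partner of the androgen receptor. Hoxb13 was close to background in every group, above the limit on 2 of 6 castrated, 2 of 6 intact mutant and 2 of 3 control arrays. It ranged from 7.07 to 7.46 in castrated mutants (median 7.18) and from 7.12 to 7.63 in intact mutants (median 7.24), against 7.82, 7.34 and 7.47 in controls. Neither difference passed, at -0.32 for castrated mutants (SE 0.13, adjusted p = 0.0603) and -0.26 for intact mutants (SE 0.13, adjusted p = 0.132), each against controls. The castrated difference did pass without control replicate 2, intact mutant replicate 5 or castrated replicate 2 (adjusted p = 0.036, 0.0365 and 0.0358), and the intact one without intact mutant replicate 5 (0.0413).

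Hoxa13 averaged 8.39 ± 0.25 in castrated mutants, 8.41 ± 0.33 in intact mutants and 7.99 ± 0.06 in controls. Its differences from control of 0.41 and 0.42 did not pass (adjusted p = 0.0777 and 0.0683), and its other 2 probes gave smaller differences of 0.25 and 0.01 for castrated and 0.22 and -0.14 for intact mutants. The castrated difference passed without castrated replicate 4 or intact mutant replicate 5 (adjusted p = 0.0392 and 0.0269). Hoxd10 in intact mutants was close to the threshold (log2 fold change 0.55, SE 0.22, adjusted p = 0.0527), with all 6 intact mutant arrays above all controls. It passed without intact mutant replicate 5 or castrated replicate 1, 5 or 6 (adjusted p = 0.02, 0.0452, 0.0247 and 0.0453). Hoxd4 was also above every control on all 6 intact mutant arrays, with values from 8.85 to 10.00, but its difference of 0.76 did not pass (SE 0.41, adjusted p = 0.148). For Hoxa2 the brightest probe was not called in castrated mutants against controls (0.28, adjusted p = 0.0982), whereas a second probe was (0.46, adjusted p = 0.0205). Hoxa9 in castrated mutants was above every control, with values from 8.84 to 9.47, and differed by 0.43 (SE 0.17, adjusted p = 0.0513). It passed without castrated replicate 4 or 6 or intact mutant replicate 1 or 2 (adjusted p = 0.0385, 0.0365, 0.0303 and 0.038).

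The remaining uncalled members were as follows, in both mutant groups against controls. The differences of Hoxb2, Hoxb3, Hoxb4 and Hoxb5 were all negative, between -0.42 and -0.09, and none passed. Hoxb5, the most negative, averaged 9.55 ± 0.23 in castrated mutants, 9.53 ± 0.34 in intact mutants and 9.95 ± 0.20 in controls. Hoxa5, a gene of lung and trunk patterning, averaged 9.36 ± 0.29, 9.16 ± 0.24 and 9.18 ± 0.17 in the same order of groups, with differences of 0.18 and -0.02. Hoxc10 and Hoxc4 differed by -0.21 to 0.02, and Hoxd8 in intact mutants by 0.46 (SE 0.20, adjusted p = 0.078). Hoxa3, Hoxa10 and Hoxd3, which no control showed above background, were not called. Hoxd3 in castrated mutants differed most, by 0.56 (SE 0.26, adjusted p = 0.0979). Leaving out single mutant arrays let a few of these pass: Hoxb4 in castrated mutants without castrated replicate 3 or intact mutant replicate 3 (adjusted p = 0.0464 and 0.0476), Hoxb5 in castrated mutants without intact mutant replicate 1 (0.0473) and in intact mutants without their replicate 3 (0.0186). Hoxb6, Hoxd8 and Hoxd11 in intact mutants (0.0254 without replicate 3, 0.0362 without replicate 5 and 0.0434 without replicate 6) and Hoxd3 in castrated mutants (0.0342 without intact mutant replicate 3) did so too.

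The third comparison asked whether castration altered Hox expression within the mutant genotype. No Hox gene was called, and neither was any of the 16682 tested genes (0% called; smallest adjusted p 0.0571 in limma). At an unadjusted p under 0.05 there were 2620 of the 16682 genes and 5 of the 26 tested Hox genes, which are similar shares. The intervals leave room for sizeable differences in HoxD. Hoxd4 was 1.28 log2 units higher in castrated than in intact mutants, with a 95% interval of 0.57 to 1.99 (adjusted p = 0.105). Hoxa11 was 0.32 higher (0.14 to 0.49, adjusted p = 0.103), Hoxd8 0.50 higher (0.14 to 0.85, adjusted p = 0.175) and Hoxd10 0.43 higher (0.05 to 0.81, adjusted p = 0.26). The difference for Hoxd13 was -0.21 (-0.48 to 0.06) and for Hoxb9 -0.13 (-0.35 to 0.10).

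Whether Hoxd4 and Hoxa11 passed depended on single castrated arrays. Without castrated replicate 1 both Hoxd4 (log2 fold change 1.53, adjusted p = 0.0325) and Hoxa11 (0.37, adjusted p = 0.0354) were called higher, and 268 genes were called in all. Without castrated replicate 5, Hoxd4 alone of the Hox genes was called higher (1.47, adjusted p = 0.0434), among 234 genes. These are the castrated arrays with the lowest Hoxd4.

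The spread among castrated arrays followed one pattern across several members. Hoxd3, which lies beside Hoxd4, was at 7.33, 8.33, 7.79, 7.93, 7.35 and 7.97 in castrated mutant replicates 1 to 6, so replicates 1 and 5 were lowest here as well as for Hoxd4, Hoxd8 and Hoxd10. For Hoxa11, replicates 1 and 3 were lowest. Msmb, which encodes a secreted prostate protein, was at 11.41 and 12.85 in replicates 1 and 5 and at 7.39, 7.11, 7.25 and 7.23 in replicates 2, 3, 4 and 6. The arrays high in Hoxd4 were thus those on which Msmb was near background.

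The mean level of 9 prostate secretion genes was 9.82 and 10.42 on castrated replicates 1 and 5 and 7.28 to 8.05 on the other 4, with Pbsn at background on all 6. Mean levels of stromal markers split the same way. The mean of 16 fibroblast and matrix markers was 9.13 and 9.66 on replicates 1 and 5 and 9.75 to 10.62 on the others, and that of 15 smooth muscle markers was 8.14 and 8.39 against 8.53 to 9.17. Single fibroblast genes, picked with their values in view, were further apart: Lum was at 8.07 and 9.20 on replicates 1 and 5 and at 10.69 or more on the others, and Dcn at 12.94 and 13.20 against 14.72 or more. Both encode matrix proteoglycans. Most members of that list did not split so. Besides Lum and Dcn, only Col6a1, Fbln1, Pdgfra and Thy1 were lower on both replicates 1 and 5 than on all the others. Col1a1, Col1a2, Col3a1, Col5a1, Fbln2, Fn1, Postn and Mfap5 were not. Gsn was at 9.08 and 8.87 on replicates 1 and 5 and at 7.82 to 8.49 on the others. Sparc was highest on replicate 5, at 12.04. The mean of 6 urothelium markers was 9.20 and 9.32 on replicates 1 and 5 and 9.71 to 10.12 on the others, and that of 9 nerve and neuroendocrine markers was 7.47 and 7.50 against 8.01 to 8.48. The part of these cell types in the HoxD spread was not tested.

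Among intact mutants Msmb and Hoxd4 were not split in this way. Replicate 1 had Msmb at 7.31 and the lowest Hoxd4 of the group, 8.85, and replicate 3 had the highest Hoxd4, 10.00, with Msmb at 10.47. Replicate 3 also had the highest fibroblast and matrix mean, 11.08, and the highest Lum and Dcn, 11.57 and 14.69, while replicate 1 had the next highest mean, 10.84, with Lum at 10.44 and Dcn at 13.39.

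**Figure D4:**
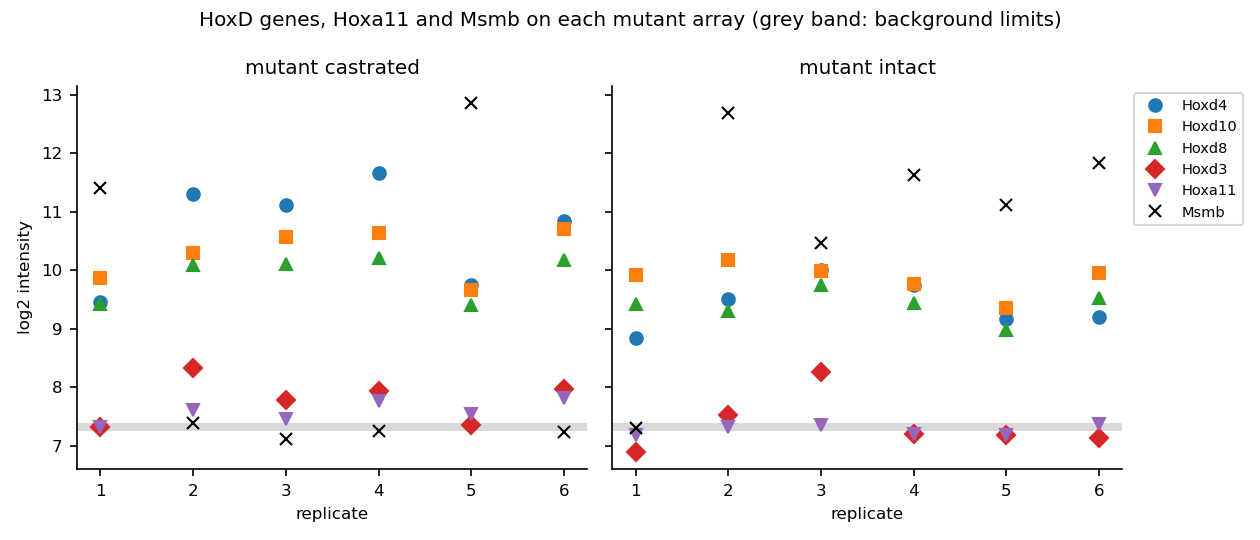
Log2 intensity of Hoxd4, Hoxd10, Hoxd8, Hoxd3, Hoxa11 and Msmb on each castrated mutant array (left) and intact mutant array (right); replicate numbers only name the arrays, and the grey band is the range of background limits. On castrated replicates 1 and 5 Msmb is at 11.41 and 12.85 and Hoxd4 at 9.46 and 9.75, and on the other 4 Msmb is at 7.11 to 7.39 and Hoxd4 is at 10.84 or more.

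RNA levels of several lists of cell type markers differed strongly between mutants and controls, and these values stand beside every difference from control given above. The shares over all tested genes were 20.0% higher and 24.6% lower in castrated mutants, and 18.2% and 25.4% in intact mutants. All 13 tested smooth muscle markers were lower in both mutant groups than in controls, with mean levels of the list of 8.14 to 9.17 in castrated mutants, 8.12 to 9.71 in intact mutants and 10.74 to 10.89 in controls. Of 11 tested leukocyte markers, 9 were higher in castrated and 8 in intact mutants than in controls. The list averaged 9.80 to 10.42 in castrated mutants, 9.04 to 11.34 in intact mutants and 7.71 to 7.88 in controls. Its members S100a8 and S100a9 passed the filter through mutant arrays alone, and the smooth muscle marker Kcnmb1 through control arrays alone. Differences from control in these genes are partly set by that filter. Of 10 basal markers, 9 were higher in each mutant group and 1 was lower in intact mutants. Of 7 tested markers of proximal luminal cells 6 were higher in castrated and 7 in intact mutants.

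The other lists were as follows in mutants against controls, and several of these counts are near or below the shares over all tested genes just given. Of 15 tested fibroblast and matrix markers, 2 were higher in castrated and 4 in intact mutants, and of 9 luminal markers 3 and 2 were higher and 1 was lower in each. Of 8 tested prostate secretion markers, 5 were lower in castrated and 4 in intact mutants, where 1 was higher. Of 6 urothelium markers, 2 and 3 were higher, and of 7 tested endothelial markers 2 and 3 were higher and 1 lower. Of 8 tested seminal vesicle markers, 1 was lower in castrated and none was called in intact mutants, and of 7 tested nerve and neuroendocrine markers 1 was higher in castrated and 1 lower in intact mutants. The part of these markers' cell types in the Hox differences was not tested.

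Leaving out the 4 intact arrays with Pate4 above 12, a choice made after seeing the data, leaves 1 control, whose spread is then assumed to equal that of the other groups. It reduced the Hox genes called higher to 1 in intact mutants (Hoxd13) and to 4 in castrated mutants (Hoxd4, Hoxd8, Hoxd12 and Hoxd13), each against control, and all called genes to 3660 and 3968. Some lost members nearly kept their difference: Hoxd12 in intact mutants differed by 0.85 (0.88 over all arrays) and Hoxd10 in castrated mutants by 0.95 (0.98). Others differed by less than over all arrays. Hoxa7 differed by 0.79 in castrated mutants (1.14 over all arrays) and by 0.40 in intact mutants (0.80). In intact mutants, Hoxb7 differed by 0.44 (0.60 over all arrays) and Hoxa9 by 0.32 (0.43). The Hoxb9 fall remained in both, and Hoxb13 was then called lower in castrated mutants (-0.60, adjusted p = 0.0498).

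Of 8 genes of the MEIS, PBX and PKNOX families, 3 were higher and 1 lower in both castrated and intact mutants, each against controls, with median log2 fold changes of 0.12 and 0.33. The 4 of 8 called is a share near that over all tested genes, 44.6% in castrated and 43.6% in intact mutants, which is also the background for the 4 lists that follow. Meis2, a cofactor that binds DNA with HOX proteins, averaged 12.61 ± 0.35 in castrated mutants, 12.43 ± 0.29 in intact mutants and 10.14 ± 0.23 in controls. It was 5.53-fold higher in castrated (adjusted p = 1.57e-07) and 4.88-fold higher in intact mutants (adjusted p = 3.65e-07).

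Meis1 was 1.78-fold higher in castrated and 1.69-fold higher in intact mutants (adjusted p = 0.000675 and 0.00152). Meis3, above background on 13 of 15 arrays, was 1.37-fold higher in castrated and 1.39-fold higher in intact mutants (adjusted p = 0.0018 and 0.00131). Pknox1 was lower, by log2 fold changes of -0.46 and -0.51 (adjusted p = 0.0205 and 0.0107).

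Of 21 tested Polycomb genes, whose products keep Hox clusters silent, 9 were higher and 3 lower in castrated mutants and 8 higher and 3 lower in intact mutants. The medians were 0.26 and 0.00, against -0.03 and -0.04 over all tested genes. Cbx2, counted as higher in both mutant groups, was above background on no control and passed the filter through mutant arrays alone. Kdm2b, which recruits a Polycomb complex to CpG islands, averaged 10.40 ± 0.30 in castrated mutants, 10.52 ± 0.15 in intact mutants and 9.57 ± 0.09 in controls (adjusted p = 0.000344 and 0.000109 against controls). Ezh2, the methyltransferase of the second complex, averaged 8.09 ± 0.24, 8.39 ± 0.12 and 7.61 ± 0.26 in the same order of groups (adjusted p = 0.0113 and 0.000347). Phc1 and Pcgf6, which encode subunits of the first complex and its variants, were 1.75-fold and 1.74-fold higher in castrated and 1.77-fold and 1.58-fold higher in intact mutants, while Rybp fell by 0.62 and 0.56 on the log2 scale.

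Of 17 Trithorax and MLL genes, whose products keep Hox genes active, 3 were higher and 5 lower in castrated mutants and 2 higher and 3 lower in intact mutants, near the share over all genes in the first case and below it in the second. Mllt3, which encodes an elongation factor known as a fusion partner of MLL in leukaemia, was 2.47-fold higher in castrated and 2.49-fold higher in intact mutants (adjusted p = 5.36e-07 and 5.15e-07). Men1, which encodes the menin subunit, was lower, with log2 fold changes of -0.63 and -0.50 (adjusted p = 2.47e-05 and 0.000211). Kmt2a, the MLL gene itself, differed by 0.01 and -0.01 and was not called.

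Of 16 tested genes of retinoic acid synthesis, transport and response, 7 were higher and none lower in each mutant group against controls, with medians of 0.32 in castrated and 0.37 in intact mutants. Aldh1a3, a retinoic acid synthesising enzyme, averaged 9.30 ± 0.43 in castrated mutants, 9.44 ± 0.55 in intact mutants and 7.42 ± 0.08 in controls (adjusted p = 0.000101 and 5.35e-05 against controls). Rarb, a receptor gene that is itself a target of retinoic acid, was above background on all 12 mutant arrays and on no control. It was at least 3.85-fold higher in castrated and at least 2.47-fold higher in intact mutants (adjusted p = 4.72e-07 and 1.92e-05). Rarb passed the filter only through the mutant arrays on which it is high, so its difference from control is partly set by that filter. Dhrs3, called in both mutant groups, and Rxra, called in intact mutants, passed in the same way and are among the 7 counted as higher. Stra6, the retinol uptake receptor, was 3.09-fold and 2.37-fold higher.

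**Figure D5:**
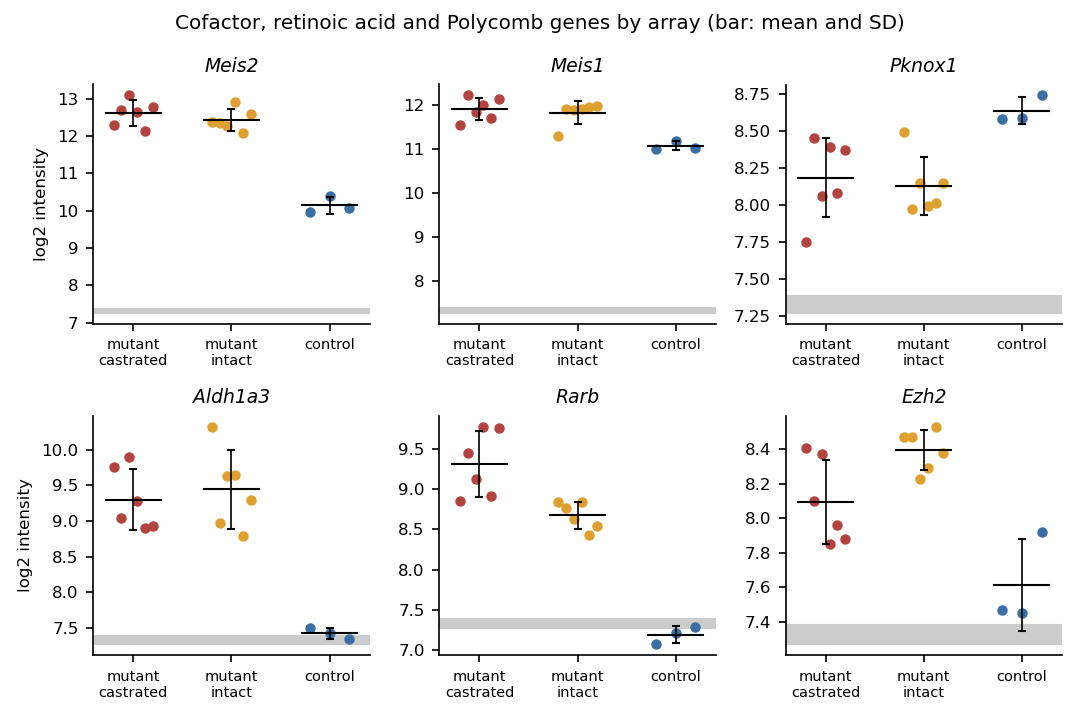
Log2 intensity of Meis2, Meis1, Pknox1, Aldh1a3, Rarb and Ezh2 in castrated mutants (n = 6), intact mutants (n = 6) and controls (n = 3); points are arrays, bars the mean and SD, and the grey band the range of background limits. Every mutant array lies above every control for Meis2, Meis1, Aldh1a3 and Rarb and below every control for Pknox1, and for Ezh2 the groups overlap between castrated mutants and controls.

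Genes that flank the clusters or regulate them, 7 tested, gave 3 higher and 1 lower in castrated and 2 higher in intact mutants. Skap2, which lies next to the HoxA cluster, was 1.61-fold higher in castrated and 1.69-fold higher in intact mutants than in controls (adjusted p = 0.000104 and 4.49e-05). Evx1, at the other end of HoxA, fell by 0.25 in castrated mutants against controls (adjusted p = 0.0422). Skap1, beside HoxB, was 1.29-fold higher in castrated mutants (adjusted p = 0.0396), and Smug1, beside HoxC, was 1.17-fold higher in castrated and 1.19-fold higher in intact mutants (adjusted p = 0.0495 and 0.0335). Evx2, next to Hoxd13, was above background on no array. None of the genes of these 5 lists was called between castrated and intact mutants.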

How the data were processed

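Total RNA of 15 mice was measured, 1 array per mouse, so p-values measure the spread between animals. RNA was extracted, amplified and biotin-labelled with kits, per the labels' protocols. The authors deposited processed intensity values on a linear scale for 45281 probes. How they corrected and normalized them is not given in the sources used here, but array medians of 151.35 to 152.47 show a common scale. The names of 15 columns in a further table, of signals before normalization, show a chip and a position but no animal. These 15 columns were not used, and chip could not be examined as a batch. That table gave each probe's symbol, joined on probe name, and all 57 member probes carry a current RefSeq symbol.

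Log2 values of these intensities entered limma 3.58.1 under R 4.3.3 (lmFit and eBayes, 1 mean per group over all 15 arrays, 12 residual degrees of freedom, two-sided). P-values were adjusted by Benjamini-Hochberg over 16682 genes, and genes with an adjusted p under 0.05 were called. The background limit was each array's 95th percentile of 1495 olfactory and vomeronasal receptor probes. Probes above it on at least 3 arrays were tested, and the brightest stood for each gene. Where no array of the dimmer group passed the limit, folds of called genes are written "at least". They put each array of that group at its limit or, if higher, its own value. Such a fold does not allow for the spread between arrays. The number of arrays limits the precision. The script was tested on simulated data.

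Every member is accounted for, and values per array are given for members called in any comparison and for Hoxb13 and Hoxd13. Up to 4 called genes with the largest fold were named per list and comparison. In contrast, Kmt2a, Evx2, Msmb, Pbsn, Apof, Pate4, Svs5, Lum, Dcn, Gsn, Sparc, Csf1r and Hoxa11os were picked with their values in view. So were genes named only for the background filter or for the split of the fibroblast and matrix list. The members and lists were chosen with earlier results of these data known. The comparisons against control share the 3 control arrays. The genes altered by the genotype and a listed cofactor gene are not reported here. RefSeq promoter windows (GRCm38.p6) were matched by symbol. Alternatives were other background limits, probe rules, fits, scalings and arrays left out.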

Additional observations from a re-analysis of the deposited data

Results flagged for a closer look

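Each of the 26 tested Hox genes was screened for a single array far from the rest of its group in both groups of 6, which makes 52 groups, and 2 were picked out, where chance picks out about 1 in 20. Hoxd13 in castrated mutant replicate 2 was at 8.14, whereas the other 5 castrated arrays lay between 8.36 and 8.44. Hoxa3 in intact mutant replicate 6 was at 7.03, whereas the other 5 lay between 7.23 and 7.34, and the gene was above background on 3 of these 6 arrays.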

How the results depend on the processing

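Each comparison was refitted under 28 other settings, and no called Hox gene changed sign in any of them. Hoxb9 and Hoxd13 in both comparisons with control, and Hoxd4, Hoxd8 and Hoxd12 in castrated mutants against control, were called in all 28. Genes called in the main setting lost their call most often for Hoxa9 in intact mutants (15 of 28), Hoxd11 (11 of the 26 in which it was tested), Hoxb7 in castrated mutants (7), Hoxb6 (6) and Hoxd9 (4). In intact mutants against control, array weights gave 9 Hox genes higher and 2 lower, cyclic loess gave 8 higher, and leaving out 1 array in turn gave 1 to 3 lower (3 without intact mutant replicate 3, 2 without replicate 5 or 6). In castrated against intact mutants, array weights called 2 Hox genes higher and 618 genes in all, no filter on dim probes called 1 gene, and leaving out 1 array in turn called 0 to 2 Hox genes higher and 0 to 268 genes (268 without castrated replicate 1, 234 without replicate 5). In castrated mutants against control, cyclic loess called 1 Hox gene lower, and leaving out 1 array in turn called 1 to 4 lower (1 without control replicate 3). Without the 4 intact arrays high in Pate4, chosen after seeing the data, 1 Hox gene was higher in intact and 4 in castrated mutants against control, and 3660 and 3968 genes were called, with fewer samples in the fit. The causes of the other changes were not tested. Among all called genes the share higher was 41.8% in intact and 44.8% in castrated mutants against control, and 51.4% and 52.7% under cyclic loess, where the majority turns. No paired analysis was possible because the labels give the animals ID numbers but no shared replicate numbers and state no litters or pairs. Signal over background limits Hoxa11, Hoxb9, Hoxb13, Hoxd3 and Hoxd11 most, since their values straddle the limit.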

Other observations

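Hoxa11os, an RNA transcribed antisense to Hoxa11, is on the array with a probe of its own and was chosen after its values were seen. It was above background on all 15 arrays, unlike Hoxa11. Its log2 intensity was 9.75, 8.70, 8.77, 8.75, 9.30 and 8.72 in castrated mutant replicates 1 to 6 and 8.43, 9.63, 8.97, 9.15, 10.17 and 9.39 in intact mutant replicates 1 to 6, against 9.85, 9.06 and 9.53 in controls. Replicates 1 and 5 were the highest castrated arrays, which is the opposite order to Hoxd4. Its differences of -0.48 for castrated and -0.19 for intact mutants against controls, and of -0.29 between castrated and intact mutants, did not pass in limma (adjusted p = 0.247, 0.674 and 0.646).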
